A study of Mus musculus with 18 samples.

Results

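Neutrophils carry their antimicrobial proteins in granules that are filled in waves while the cells mature in the bone marrow. The 10 genes described here encode contents of those granules, the calprotectin subunits of the neutrophil cytosol and a surface marker. They were chosen by name, as all probes of S100a8, S100a9, Retnlg, Ngp, Camp, Ltf, Mmp8, Mpo, Elane and Ly6g, out of 19597 genes tested on the arrays. Of these 10 genes, 9 were matched to 10 probes, with Camp on 2 probes, and all 10 probes passed the filter on dim probes. Ly6g, the antigen by which mouse neutrophils are usually sorted, was matched to no probe and has no value here.

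Liver RNA came from 18 male C57BL/6 mice, with 1 one-colour array per mouse. Diets began at 6 weeks of age and held either 10% fat (LFD) or 60% fat (HFD). After 10 weeks on diet, the MTX50 mice received 5 rounds of intraperitoneal methotrexate, an antifolate chemotherapy agent, at 50 mg/kg, and livers were taken a week after the last round. The groups were LFD (n = 4), LFD MTX50 (n = 5), HFD (n = 4) and HFD MTX50 (n = 5), and the labels mention no injection for the untreated mice. Levels are log2 signal relative to each array's 75th percentile, so a level of -3 is a signal well under that percentile and a difference of 1 is 2-fold. Levels of different probes are not compared with each other, since each probe has its own brightness.

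Primary (azurophil) granules are made first and hold myeloperoxidase and the serine proteases. Secondary and tertiary granules follow, with lactoferrin, cathelicidin, neutrophilic granule protein and the collagenase MMP8, and the S100A8 and S100A9 proteins accumulate to very high amounts in the cytosol. Messages for the primary granule proteins are therefore typical of immature cells, whereas S100a8, S100a9 and Retnlg messages persist in mature neutrophils. In whole liver, a higher signal cannot be separated into more cells of a type and more RNA per cell.

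S100a8 and S100a9 lie next to each other on chromosome 3, with 0 protein-coding genes between them in the RefSeq table, and their products pair to form calprotectin. Ngp, on chromosome 9, encodes a cystatin-related secondary granule protein. Their promoters are shown for the neighbouring calprotectin pair and for the granule gene detected in treated livers only. The sequences are from RefSeq (GRCm38.p6), run from 250 bases before to 50 bases after the annotated start, and read 5′ to 3′ on the gene's strand. Capitals mark a C/EBP-type motif (TTGCNNAA). They also mark a core of the kind bound by the myeloid factor PU.1 (GAGGAA). The last one searched was the TATA box (TATAAA). Each was searched on both strands, and no match overlapped another, although a PU.1 core and the TATA box of S100a8 adjoin.
S100a8 (chr3:90668821-90669120, + strand): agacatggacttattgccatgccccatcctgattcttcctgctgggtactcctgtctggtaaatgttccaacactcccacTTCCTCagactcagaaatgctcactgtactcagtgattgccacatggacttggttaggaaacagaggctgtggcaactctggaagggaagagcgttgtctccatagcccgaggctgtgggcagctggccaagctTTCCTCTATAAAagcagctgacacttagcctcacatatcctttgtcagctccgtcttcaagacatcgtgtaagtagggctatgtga
S100a9 (chr3:90695672-90695971, - strand): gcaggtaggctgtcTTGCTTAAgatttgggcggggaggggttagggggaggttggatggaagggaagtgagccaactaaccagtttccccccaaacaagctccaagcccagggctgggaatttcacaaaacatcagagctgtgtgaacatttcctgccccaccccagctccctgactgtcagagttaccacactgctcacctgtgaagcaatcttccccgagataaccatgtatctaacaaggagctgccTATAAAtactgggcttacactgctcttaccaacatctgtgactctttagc
Ngp (chr9:110419558-110419857, + strand): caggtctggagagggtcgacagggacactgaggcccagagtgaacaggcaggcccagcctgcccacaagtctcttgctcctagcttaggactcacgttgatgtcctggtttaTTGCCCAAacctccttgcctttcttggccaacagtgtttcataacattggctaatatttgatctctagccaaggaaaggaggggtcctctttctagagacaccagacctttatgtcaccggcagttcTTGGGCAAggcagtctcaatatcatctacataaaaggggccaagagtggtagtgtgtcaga

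The S100a8 promoter held the PU.1 core at 170 and 36 bases before the start and a TATA box at 30 bases before it. In S100a9 the C/EBP motif lay 236 bases before the start, and TATA box letters began at the annotated start itself. The Ngp promoter held the C/EBP motif at 138 and 11 bases before the start. Among all 32851 promoters of the table, 10.8% held the C/EBP motif, 28.3% the PU.1 core and 13.6% the TATA box, and 6, 6 and 4 of the 10 members held them in at least 1 promoter. These are matches of letters and show no binding.

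The arrays lay on 6 slides, each holding up to 4. LFD mice 1 to 4 shared slide 1, LFD MTX50 mice 1 to 4 slide 2, and LFD MTX50 mouse 5 was on slide 3. HFD mice 1 and 2 were on slide 4, HFD mice 3 and 4 shared slide 5 with HFD MTX50 mice 1 and 2, and HFD MTX50 mice 3 to 5 were on slide 6. Hepatocyte markers were bright on every array, with a mean level over 8 markers of 6.34 to 7.21. The red-cell message Hba-a1, encoding alpha globin, stood apart: it was 2.91 to 4.29 in the 8 untreated mice, -1.03 to -0.65 in LFD MTX50, -0.72 to -0.10 in HFD MTX50 mice 1 to 3, and 4.21 and 5.67 in HFD MTX50 mice 4 and 5.

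The 3 members of mature neutrophils varied most in the treated livers. S100a8 was at -2.51, -3.20, -2.82 and -2.21 in LFD mice 1 to 4. In HFD mice 1 to 4 it was at -3.49, -1.33, -2.28 and -3.22. The untreated groups thus overlapped. In LFD MTX50 mice 1 to 5, S100a8 was at -0.67, 0.90, -3.26, 0.86 and -2.92, so mice 1, 2 and 4 lay above every untreated LFD mouse, mouse 3 below all 4 and mouse 5 inside their range. In HFD MTX50 mice 1 to 5 it was at -2.52, -1.57, 0.40, 1.87 and 3.94. Mice 1 and 2 were inside the HFD range and mice 3 to 5 above it, with mouse 5 at 98.8-fold the LFD mean.

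**Figure D1:**
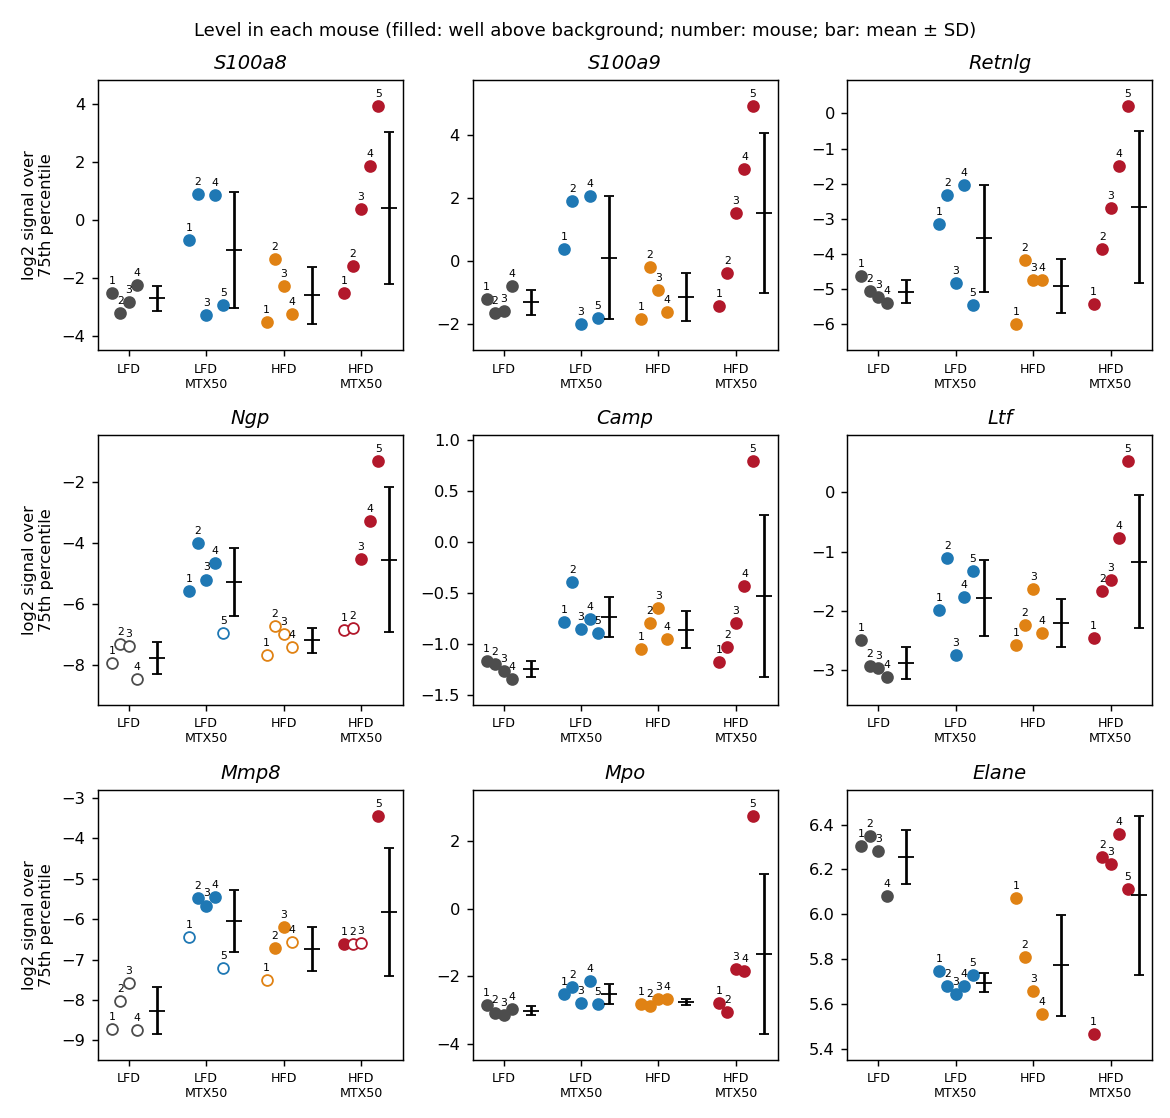
Level of the 9 measured members in each mouse, as log2 signal over the array's 75th percentile on the vertical axis, with the 4 groups on the horizontal axis. Filled points were well above background and open points were not, small numbers are mouse numbers, and bars are the mean ± SD. S100a8, S100a9, Retnlg and Ngp spread widely in both MTX50 groups. HFD MTX50 mouse 5 is the highest measured mouse for every member but Elane, and Mpo stands apart in that mouse alone. Mmp8 has no point for HFD MTX50 mouse 4.

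S100a9, the larger calprotectin subunit, varied much as S100a8 did. It was at -1.22, -1.67, -1.61 and -0.80 in LFD mice 1 to 4 and at -1.87, -0.18, -0.94 and -1.63 in HFD mice 1 to 4. Its levels in LFD MTX50 mice 1 to 5 were 0.37, 1.90, -2.01, 2.05 and -1.83. In HFD MTX50 mice 1 to 5 they were -1.45, -0.38, 1.52, 2.93 and 4.93. The same 3 mice of each treated group as for S100a8 exceeded all untreated mice on their diet.

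Retnlg encodes a resistin-like protein of granulocytes. It was at -4.62, -5.05, -5.24 and -5.41 in LFD mice 1 to 4 and at -6.00, -4.18, -4.76 and -4.75 in HFD mice 1 to 4. It reached -3.16, -2.32, -4.84, -2.03 and -5.47 in LFD MTX50 mice 1 to 5. In HFD MTX50 mice 1 to 5 it was at -5.44, -3.88, -2.69, -1.50 and 0.22, so 4 of 5 mice lay above all HFD mice.

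The spread within a treated group was close in size to the differences between groups. For S100a8 the SD was 0.42 in LFD and 0.98 in HFD, against 2.00 in LFD MTX50 and 2.60 in HFD MTX50. S100a9 had an SD of 0.41 in LFD, 0.76 in HFD, 1.95 in LFD MTX50 and 2.55 in HFD MTX50. The SD of Retnlg was 0.34, 0.77, 1.53 and 2.17 in the same order. These SDs are given as a description, and no test of the spread was run.

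The secondary and tertiary granule members differed in how far they followed. Ngp was not well above background in any of the 8 untreated livers, at -8.43 to -7.29 in LFD and -7.64 to -6.72 in HFD. It was well above background in 4 of 5 LFD MTX50 livers, at -5.58, -3.98, -5.19 and -4.63 in mice 1 to 4, and not in mouse 5 at -6.95. It was also above background in HFD MTX50 mice 3 to 5, at -4.51, -3.27 and -1.30, and not in mice 1 and 2 at -6.84 and -6.78. Ngp was thus detected in treated livers only, 7 of 10. LFD MTX50 mouse 3 had low S100a8 but detected Ngp.

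Camp encodes the precursor of the cathelicidin peptide. It was at -1.17, -1.20, -1.26 and -1.34 in LFD mice 1 to 4 and at -0.79, -0.39, -0.85, -0.76 and -0.89 in LFD MTX50 mice 1 to 5. Those 2 groups did not overlap. In HFD it ranged from -1.05 to -0.64, and in HFD MTX50 it was at -1.18, -1.03, -0.79, -0.43 and 0.80 in mice 1 to 5. The dimmer of the 2 Camp probes gave the same highest mouse, at 1.22, and a difference of 0.42 ± 0.36 (SE) in LFD MTX50 vs LFD where the brighter gave 0.51 ± 0.28.

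Ltf encodes the iron-binding lactoferrin, which other epithelia also make. It was at -2.49, -2.93, -2.96 and -3.12 in LFD mice 1 to 4 and at -2.57, -2.24, -1.64 and -2.37 in HFD mice 1 to 4. In LFD MTX50 mice 1 to 5 it was at -1.98, -1.11, -2.75, -1.76 and -1.32. It was at -2.46, -1.66, -1.48, -0.77 and 0.53 in HFD MTX50 mice 1 to 5. LFD MTX50 mouse 5, low for S100a8, was thus among the higher mice of its group for Ltf.

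Mmp8, neutrophil collagenase, was near the detection limit in all measured livers but that of HFD MTX50 mouse 5. It was at -8.71, -8.02, -7.57 and -8.75 in LFD mice 1 to 4, not well above background in any. In HFD mice 1 to 4 it was at -7.49, -6.71, -6.20 and -6.56, above background in mice 2 and 3. In LFD MTX50 mice 1 to 5 it was at -6.44, -5.47, -5.66, -5.45 and -7.20, above background in mice 2, 3 and 4. HFD MTX50 mice 1, 2, 3 and 5 were at -6.62, -6.61, -6.60 and -3.44, and the spot of mouse 4 was an outlier with no value. The probe was above background in HFD MTX50 mice 1, 4 and 5. Mouse 5 was the highest of the 4 measured mice, and mouse 4 has no value to set beside it. Over 15 other processing settings the HFD MTX50 vs HFD difference ran from -0.24 to 2.00.

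The primary granule members, Mpo and Elane, behaved unlike each other. Mpo, the peroxidase that makes hypochlorous acid, was at -3.15 to -2.85 in LFD and -2.87 to -2.68 in HFD. In LFD MTX50 mice 1 to 5 it was at -2.51, -2.32, -2.79, -2.13 and -2.81, all above every LFD mouse but by under 1 log2 unit. In HFD MTX50 mice 1 to 5 it was at -2.78, -3.05, -1.79, -1.83 and 2.76. Mouse 5 alone was 23.5-fold above the highest of the other 17 livers. Of 7 further primary granule genes, 4 were highest in the same liver, Prtn3, Ctsg, Ms4a3 and Ctsc, and 3 were not. Ctsc was highest by little, at 1.59 against at most 1.55 elsewhere. Prtn3, the proteinase stored with Mpo, was at 1.01 against at most -2.01 elsewhere. Ctsg, cathepsin G, was at 1.51 against at most 0.25. Ms4a3, a surface protein of granulocyte-monocyte progenitors, picked after its value was seen, was at -0.71 against at most -3.57. Gfi1, a transcription factor of granulocyte maturation, is not among these 7 genes and was also picked after its value was seen. It was at -2.83 against at most -4.96. In contrast, Fcnb, a ficolin, was lower in that liver than in any other, at -4.03, and Bpi (-3.80) and Srgn (0.86) lay below the highest of the others, at -2.88 and 1.67, these 3 being named for that reason.

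Elane encodes neutrophil elastase and lies next to Prtn3 on chromosome 10. Its probe was well above background on all 18 arrays and did not follow Mpo or Prtn3. It was at 6.31, 6.35, 6.28 and 6.08 in LFD mice 1 to 4 and at 5.75, 5.68, 5.64, 5.68 and 5.73 in LFD MTX50 mice 1 to 5, with no overlap. In HFD mice 1 to 4 it was at 6.07, 5.81, 5.66 and 5.55, below all LFD mice. In HFD MTX50 mice 1 to 5 it was at 5.47, 6.26, 6.22, 6.36 and 6.11. The liver with the highest Mpo and Prtn3, HFD MTX50 mouse 5, was thus unremarkable for Elane, and whether this probe reads Elane message alone was not tested.

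**Figure D2:**
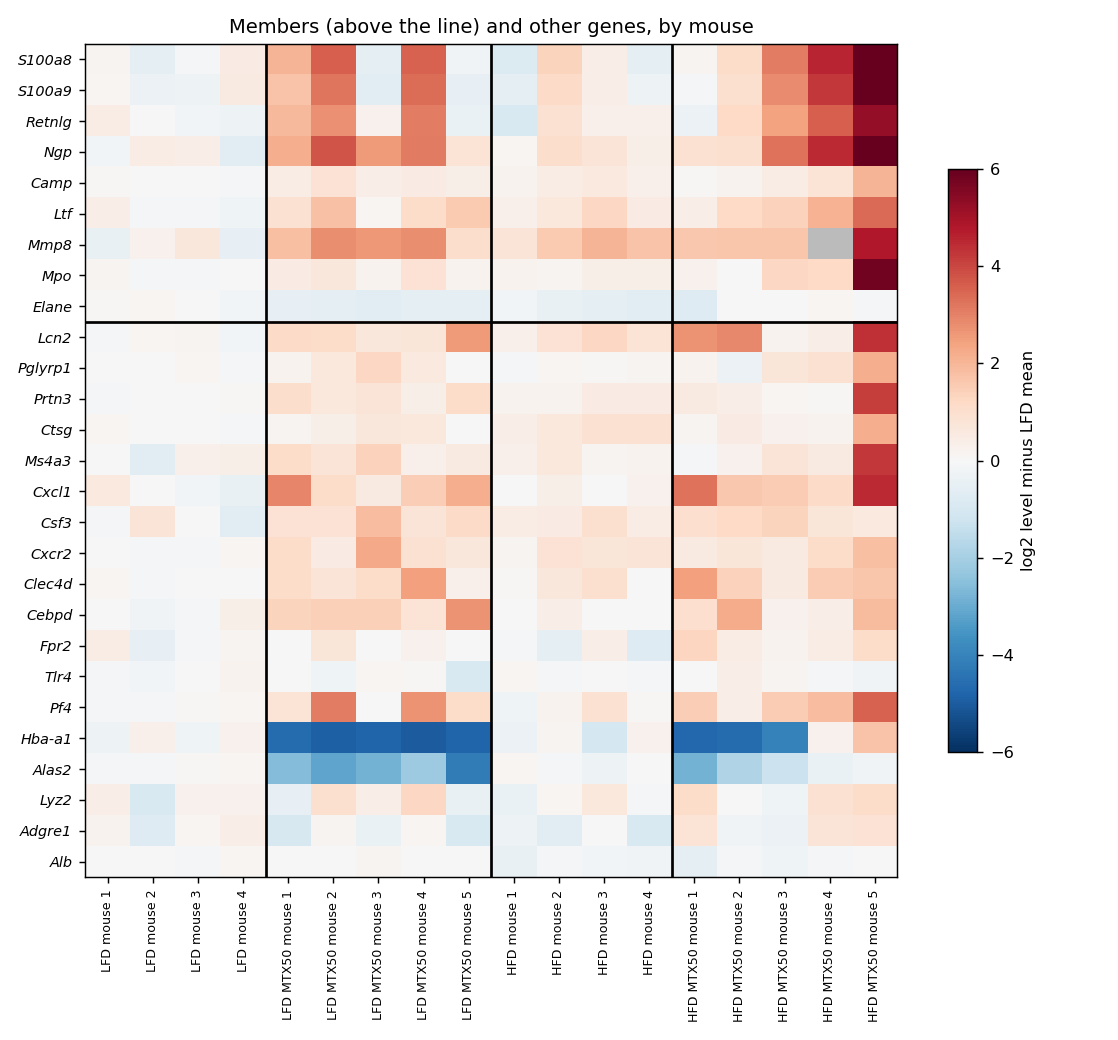
Log2 level minus the LFD mean (colour) for the 9 measured members, above the black line, and 18 other genes, below it, in each of the 18 mice (columns). Grey is a missing value. S100a8, S100a9, Retnlg and Ngp are red in 3 or 4 mice of each MTX50 group, Prtn3, Ms4a3 and Mpo are deep red in HFD MTX50 mouse 5, and Hba-a1 is blue in LFD MTX50 and in HFD MTX50 mice 1 to 3.

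Diet alone was tested first, asking whether obese livers carried more of these messages. In HFD vs LFD, limma's test with Benjamini-Hochberg adjustment passed 0 of 9 members as higher and 1, Elane, as lower. Over all genes, 18% passed as higher and 10.4% as lower. Camp differed by 0.38 ± 0.29 (limma adjusted p = 0.328), with no overlap on either probe (exact permutation p = 0.0286), and passed by the methods' t-test (adjusted p = 0.0311) and by limma with only the groups compared (0.0213). Ltf differed by 0.67 ± 0.47 (0.287) and passed with only the groups compared (limma adjusted p = 0.0359). In those fits 35.7% and 41.7% of all genes passed. Mpo differed by 0.25 ± 0.82 (0.836), and Ngp was not above background in either group. The calprotectin and Retnlg differences were 0.10 ± 1.18 (SE) for S100a8, 0.17 ± 1.14 for S100a9 and 0.16 ± 0.95 for Retnlg, all far inside their errors. Their signs are not settled: under quantile normalization S100a8 was at -0.08 and Retnlg at -0.18, and without HFD mouse 2 S100a8 was at -0.31, S100a9 at -0.16 and Retnlg at -0.09.

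Elane fell by 0.48 on the log2 scale, or 1.40-fold (SE 0.16, limma adjusted p = 0.0336), and the 4 HFD mice lay below the 4 LFD mice (exact permutation p = 0.0286, two-sided, the smallest that 4 against 4 allows). Without any one of LFD mice 1, 2 and 3 or HFD mice 2, 3 and 4 the call was lost, at adjusted p = 0.0543 to 0.107, and with slide as a random block it was 0.168. Under quantile normalization the difference was -0.23 and did not pass (limma adjusted p = 0.170). Mmp8 differed by 1.52 ± 0.61 (limma adjusted p = 0.0726), again with no overlap (exact permutation p = 0.0286). No fold is given for Mmp8, since the bound against background was under 1. It passed without HFD MTX50 mouse 5 (limma adjusted p = 0.0104). LFD and HFD never shared a slide, so slide and diet cannot be told apart.

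Methotrexate in the lean mice gave the most calls among the members, but calls were common there. Of 19597 genes, 28.1% passed with methotrexate in the lean mice, 28.3% with diet and 11% with methotrexate in the obese mice. The count of calls therefore does not by itself set the members apart. Whether members passed more often than other genes was not tested. In LFD MTX50 vs LFD, limma passed Ngp and Mmp8 as higher and Elane as lower, 3 of 9 members, where 17.6% of all genes passed as higher and 10.5% as lower. The median difference over the 9 members was 1.42, beside 0.10 over all genes, and 8 of 9 differences were positive. Ngp rose by 2.49 ± 0.88 (limma adjusted p = 0.0435), with all 5 treated mice above all 4 untreated (exact permutation p = 0.0159). Since Ngp was not above background in LFD, this is at least 2.45-fold higher. Ngp passed the filter on dim probes through treated livers alone, so its call is not independent of that filter, and without the filter it was lost (limma adjusted p = 0.0502).

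Mmp8 rose by 2.22 ± 0.58 (limma adjusted p = 0.0135, exact permutation p = 0.0159), at least 1.43-fold higher, and was above background in 3 of 5 treated livers. With outlier spots kept the call was lost (limma adjusted p = 0.0921). Elane fell by 0.56, or 1.47-fold (SE 0.15, limma adjusted p = 0.0143), with no overlap (exact permutation p = 0.00794, the smallest that 4 against 5 allows). With slide as a random block the limma adjusted p was 0.210 for Ngp, 0.138 for Mmp8 and 0.114 for Elane, since the groups share no slide. The Ngp call was also lost under quantile normalization (adjusted p = 0.134), median scaling (0.0587) and without any one of 12 of the 18 mice, LFD mice 1 to 4, LFD MTX50 mice 1 to 4, HFD mice 2 to 4 and HFD MTX50 mouse 3 (0.0511 to 0.0995).

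The remaining members were higher on average in LFD MTX50 without passing. Ltf differed by 1.09 ± 0.45 (limma adjusted p = 0.0757), with 4 of 5 treated mice above all LFD mice, and passed without LFD MTX50 mouse 3 or HFD MTX50 mouse 1 or 5. S100a8 differed by 1.67 ± 1.12 (limma adjusted p = 0.262) and S100a9 by 1.42 ± 1.08 (0.324). Retnlg differed by 1.52 ± 0.90 (0.207), Camp by 0.51 ± 0.28 (0.172) and Mpo by 0.50 ± 0.78 (0.644). For Mpo and the brighter Camp probe the groups did not overlap (exact permutation p = 0.0317 and 0.00794), while on the dimmer Camp probe they did (p = 0.0873 by the same test), and the pooled spread of the model includes HFD MTX50 mouse 5, without which Camp passed (limma adjusted p = 0.0162).

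**Figure D3:**
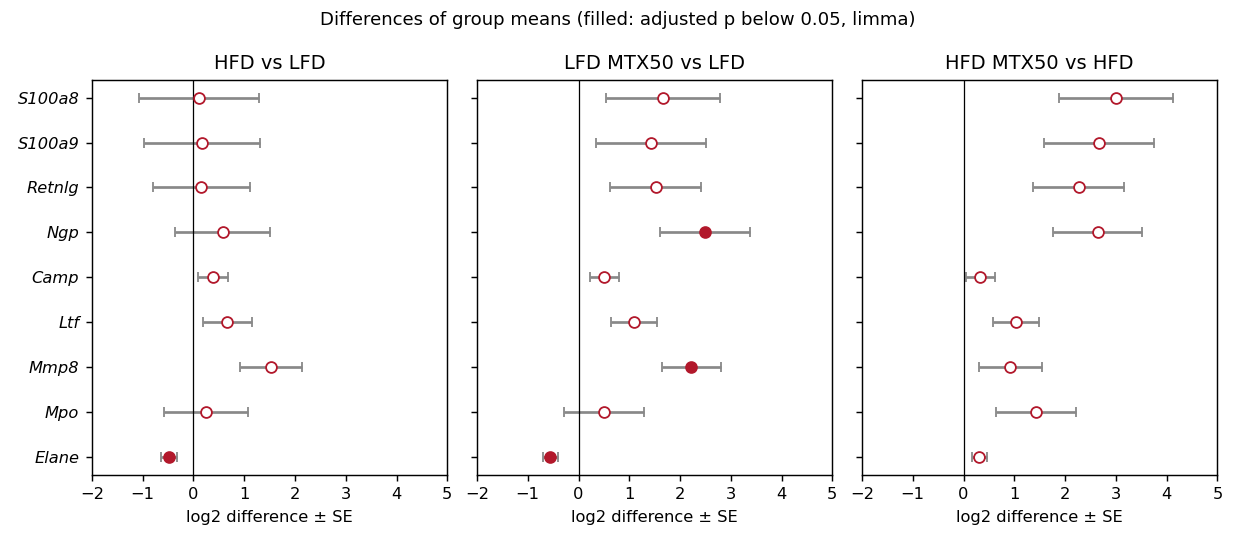
Difference of group means (horizontal axis, log2, ± SE from limma) for the 9 measured members in the 3 comparisons, 1 panel each. Filled points passed at an adjusted p below 0.05: Elane in HFD vs LFD, Ngp, Mmp8 and Elane in LFD MTX50 vs LFD, and 0 members in HFD MTX50 vs HFD, where S100a8, S100a9, Retnlg and Mpo have their largest differences and wide errors.

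In the obese mice the members were higher on average with methotrexate, and none passed. In HFD MTX50 vs HFD, limma passed 0 of 9 members in either direction, where 4.83% of all genes passed as higher and 6.13% as lower. The methods' t-test with the same adjustment passed 0 members and 0 of all genes. All 9 differences were positive, with a median of 1.42 beside -0.04 over all genes. Several rested on HFD MTX50 mouse 5, without which Mpo differed by 0.40, Mmp8 by 0.13, Camp by 0.00041, Ltf by 0.61 and S100a8 by 2.13. For Mmp8, mouse 4 was missing as well. S100a8 differed by 3.00 ± 1.12 (limma adjusted p = 0.0838), a ratio of 8.03, with 3 of 5 treated mice above all HFD mice (exact permutation p = 0.0714).

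S100a9 differed by 2.67 ± 1.08 (limma adjusted p = 0.107) and Retnlg by 2.27 ± 0.90 (0.102). Ngp differed by 2.64 ± 0.88 (limma adjusted p = 0.0601). Its treated mean was at least 4.24-fold over background in HFD, and includes HFD MTX50 mice 1 and 2, which were not above background. Ngp passed the filter on dim probes through treated livers alone, so this test too is not independent of that filter. Ltf differed by 1.03 ± 0.45 (0.129), Mpo by 1.42 ± 0.78 (0.222) and Mmp8 by 0.92 ± 0.61 (0.313, on 4 treated mice). Camp, at 0.33 ± 0.28 (0.431) on its brighter and 0.65 ± 0.36 (0.221) on its dimmer probe, and Elane, at 0.31 ± 0.15 (0.168), had the smallest differences by the brightest probe. Leaving out HFD MTX50 mouse 1, the lowest of its group for S100a8, brought 6 members past the threshold, S100a8, S100a9, Ngp, Ltf, Retnlg and Elane, at limma adjusted p = 0.0165 to 0.0411, where 15.1% of all genes passed in place of 11%. Without HFD MTX50 mouse 2, Ngp alone passed (0.0278).

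For most members the difference was larger between slides than within the shared one. On slide 5, which held 2 HFD MTX50 and 2 HFD mice, the treated mean minus the untreated mean was 0.70 for S100a8, 0.37 for S100a9, 0.10 for Retnlg and 0.37 for Ngp. It was -0.06 for Ltf, -0.31 for Camp, -0.23 for Mpo, -0.24 for Mmp8 and 0.26 for Elane. Between the 3 treated mice of slide 6 and the 2 untreated mice of slide 4 the difference was 4.48 for S100a8, 4.16 for S100a9, 3.77 for Retnlg, 4.15 for Ngp and 2.56 for Mpo. Among high-fat-fed mice the high levels lay on slide 6, which holds treated mice only, so slide and treatment cannot be told apart there. LFD MTX50 mice 1, 2 and 4, also high for S100a8, were on slide 2, which holds treated mice only as well. LFD MTX50 mouse 3, also on slide 2, was at -3.26, the lowest of all treated mice. The treated mice on the other slides were lower for S100a8 than LFD MTX50 mice 1, 2 and 4 and the mice of slide 6. LFD MTX50 mouse 5 on slide 3 was at -2.92, and HFD MTX50 mice 1 and 2 on slide 5 were at -2.52 and -1.57. The part of slide in these levels was not tested.

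**Figure D4:**
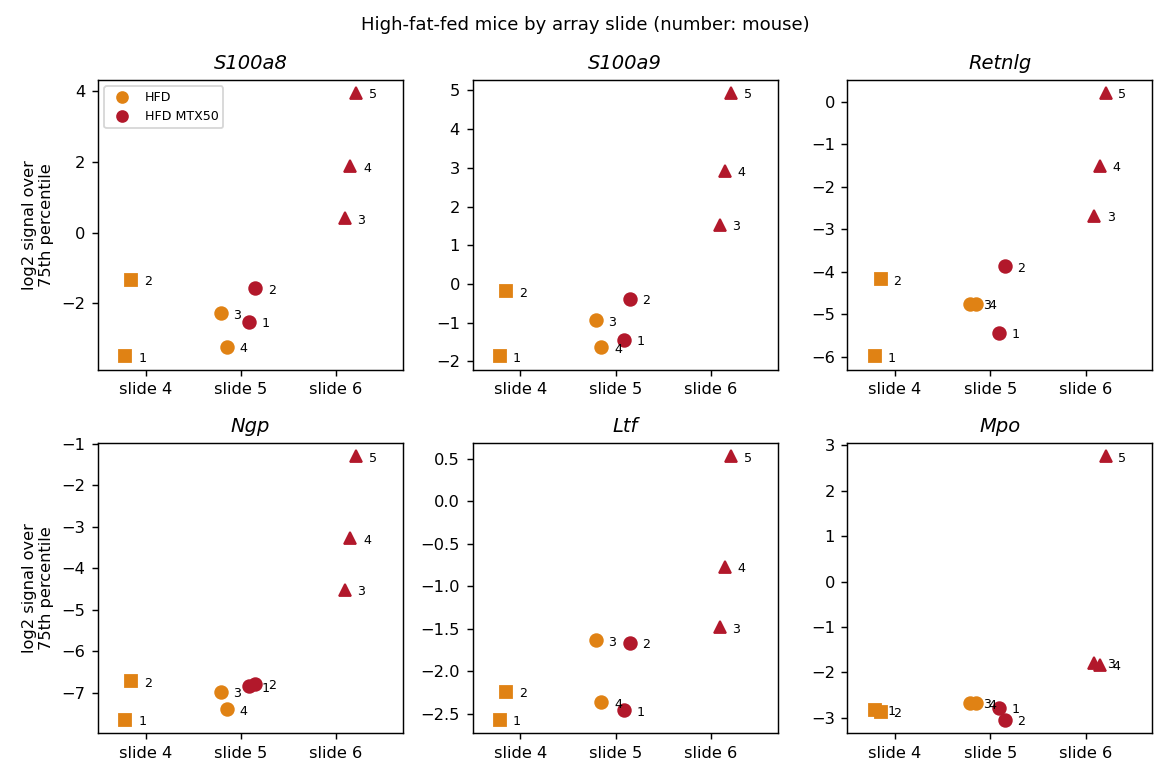
Level of 6 members (vertical axis, log2 signal over the array's 75th percentile) in the 9 high-fat-fed mice by array slide (horizontal axis), with colour for treatment, marker shape for slide and small numbers for mice. On slide 5 the 2 treated mice lie near the 2 untreated mice, and the 3 treated mice of slide 6 lie above them.

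The red-cell signal moved with the members in the HFD MTX50 group but not in LFD MTX50. HFD MTX50 mice 4 and 5, the highest 2 for S100a8, had Hba-a1 at 4.21 and 5.67, and mice 1 to 3 had it at -0.72, -0.63 and -0.10. Mouse 3, on slide 6, had raised S100a8 and Ngp with low Hba-a1. In LFD MTX50, mice 1, 2 and 4 had raised S100a8 while Hba-a1 stayed between -1.03 and -0.65. The part of blood content in these levels was not tested.

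The effect of methotrexate on the 2 diets was then compared directly. For the difference between treatment effects (HFD MTX50 minus HFD, less LFD MTX50 minus LFD), limma passed 1 of 9 members as higher, Elane, and 0 as lower, with 8.66% of all genes passing as higher and 18.1% as lower. Elane differed by 0.87 ± 0.21 (limma adjusted p = 0.0105, exact permutation p = 0.00277 over arrangements within each diet). It was lower with methotrexate on the low-fat diet and 0.31 higher, without passing, on the high-fat diet. With slide as a random block the limma adjusted p was 0.0555.

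For the other members the effects were not shown to differ between diets. S100a8 gave 1.34 ± 1.58 (limma adjusted p = 0.545), S100a9 1.25 ± 1.53 (0.560) and Ngp 0.15 ± 1.25 (0.938). Retnlg gave 0.75 ± 1.28 (0.684), Mpo 0.92 ± 1.11 (0.550) and Ltf -0.05 ± 0.64 (0.958). Camp gave -0.18 ± 0.40 (0.761) and Mmp8 -1.29 ± 0.85 (0.259), which passed without HFD MTX50 mouse 5 at -2.09 (limma adjusted p = 0.0187). With errors of this size, log2 differences of 1 or 2 between the diets could not be told from 0 for most members.

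From mouse to mouse the members followed S100a8 to different degrees. The permutations moved all mice freely across groups and slides, so a shift shared by a group or slide can also give a small p. Across the 18 mice S100a9 followed S100a8 at Pearson r = 0.997 and Spearman rho = 0.988 (permutation p = 1e-05 for each, the smallest that 100000 permutations give, adjusted p = 2e-05 and 8e-05 over 8 relations). Without the 2 mice farthest from the S100a8 median, r was 0.994. Retnlg followed at r = 0.975 and rho = 0.860 (permutation p = 1e-05 and 4e-05, adjusted 2e-05 and 0.00016), and r was 0.944 without those mice. Ngp gave r = 0.903 and rho = 0.721 (permutation p = 1e-05 and 0.00101, adjusted 2e-05 and 0.00269), and r was 0.779 without them.

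Ltf gave r = 0.846 and rho = 0.692 (permutation p = 5e-05 and 0.00183, adjusted 6.7e-05 and 0.00366), and r was 0.645 without them. Camp gave r = 0.83 and rho = 0.680 (permutation p = 4e-05 and 0.00264, adjusted 6.4e-05 and 0.00422), with r of 0.630 without them. Mmp8, on 17 mice, gave r = 0.735 and rho = 0.495 (permutation p = 0.00095 and 0.0457, adjusted 0.00109 and 0.0522), and r fell to 0.419 without the 2 farthest, so the relation rests largely on those mice.

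Mpo gave r = 0.789 and rho = 0.616 (permutation p = 1e-05 and 0.00816, adjusted 2e-05 and 0.0109), and Elane gave r = 0.158 and rho = 0.232 (permutation p = 0.532 and 0.352, adjusted 0.532 and 0.352). Without the 2 farthest mice r was 0.776 for Mpo and -0.11 for Elane. After each group's mean was subtracted, r with S100a8 was 0.997 for S100a9, 0.962 for Retnlg, 0.863 for Ngp, 0.809 for Camp, 0.779 for Ltf, 0.728 for Mpo, 0.702 for Mmp8 and 0.302 for Elane. No test was run on these group-centred r. Slides hold 4 mice at most, too few for a value within each slide.

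**Figure D5:**
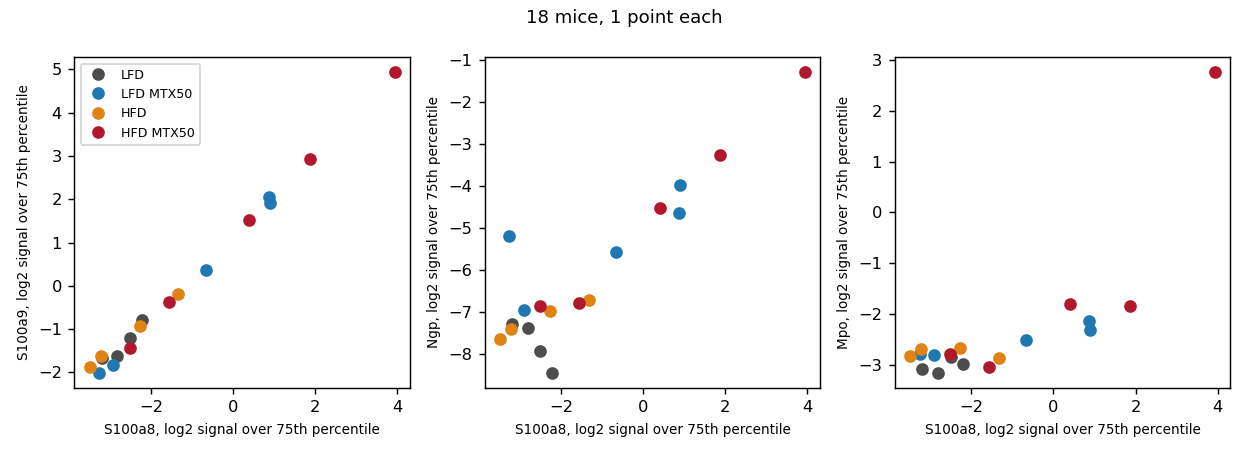
Level of S100a9, Ngp and Mpo (vertical axes) against S100a8 (horizontal axis), both as log2 signal over the array's 75th percentile, with 1 point for each of the 18 mice coloured by group. S100a9 lies on a line with S100a8 (r = 0.997), and Ngp follows more loosely (r = 0.903). Mpo follows more loosely still (r = 0.789), with 1 mouse far above the others.

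The genes outside the set whose levels were most like S100a8 over the 18 arrays, among 19401 with a value on every array, were Ifitm6 (r = 0.876), Pf4 (0.871), Myb (0.866), Treml1 (0.855) and Gata1 (0.852). Pf4 and Treml1 are platelet genes, Gata1 is a transcription factor of red-cell and megakaryocyte precursors, and Myb is one of blood progenitors. Those most like Ngp were Mcpt8 (0.931), a basophil protease, Gata1 (0.926), Ifitm6 (0.912), Myb (0.898) and Pglyrp1 (0.896), a peptidoglycan-binding granule protein. With each group's mean subtracted these r were 0.801 to 0.852 for S100a8 and 0.828 to 0.914 for Ngp. Arrays share their group, slide and blood content, so these values are descriptions without a test.

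Pf4, platelet factor 4, was at most -2.63 in LFD and -1.83 in HFD. It reached 0.30 in LFD MTX50 and 0.80 in HFD MTX50, with lowest levels of -2.78 and -2.34 there. The treated and untreated mice of each diet thus overlapped for Pf4. Gata1 was at most -5.30 in LFD, -4.75 in HFD, -3.97 in LFD MTX50 and -2.78 in HFD MTX50. Its lowest level in HFD MTX50, -5.61, was below all HFD mice. The mean level of 6 platelet and megakaryocyte markers ran from -3.85 to -3.66 in LFD, -3.72 to -1.84 in LFD MTX50, -3.77 to -3.22 in HFD and -3.77 to -1.86 in HFD MTX50. Of the 6, Itga2b (0.68 ± 0.13, limma adjusted p = 0.00356) and Treml1 (1.11 ± 0.38, 0.0396) rose in LFD MTX50 vs LFD, and 4 did not pass. In HFD MTX50 vs HFD 0 rose and Gp1bb fell by 0.48 (SE 0.13, limma adjusted p = 0.0287). Their part in the levels of the members was not tested.

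Genes that work beside the members moved less uniformly. Of all genes, 17.6% passed as higher and 10.5% as lower in LFD MTX50 vs LFD. In HFD MTX50 vs HFD the shares were 4.83% and 6.13%. These shares stand beside the counts of every companion and marker list. Whether any list passed more often than other genes was not tested. Of 7 further primary granule genes, 1 rose in HFD MTX50 vs HFD, Ctsc, the protease that activates the granule serine proteases (0.70 ± 0.15, limma adjusted p = 0.0137), and 6 did not pass. In LFD MTX50 vs LFD 1 of 7 rose, Bpi, which binds bacterial lipopolysaccharide (0.71 ± 0.18, 0.0116). Prtn3 differed by 0.71 in HFD MTX50 vs HFD and by 0.79 in LFD MTX50 vs LFD, and Ctsg by -0.05 and 0.36, none passing. The median of the 7 was 0.06 in the obese and 0.41 in the lean mice, against -0.04 and 0.10 over all genes.

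Of 10 further secondary and tertiary granule genes, 0 passed in HFD MTX50 vs HFD by limma. In LFD MTX50 vs LFD 2 rose, Hp, the haemoglobin-binding protein that hepatocytes also secrete (1.03 ± 0.20, limma adjusted p = 0.00339), and Cd177, a neutrophil surface protein (0.51 ± 0.17, 0.0356). Under quantile and median scaling the Cd177 call was lost (limma adjusted p = 0.550 and 0.0624). Lcn2, the iron-scavenging lipocalin that hepatocytes also make, differed by 1.31 (0.179) in the obese and 1.24 (0.151) in the lean mice. It was highest in HFD MTX50 mouse 5, at 5.23, but next highest in mice 2 and 1 of that group, at 3.72 and 3.54, where S100a8 was low.

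Of 16 measured genes of the neutrophil surface and mature cells, 5 rose and 3 fell in LFD MTX50 vs LFD. By size the first 6 were Clec4d (1.15), Cxcr2, the receptor that draws neutrophils out of the marrow, Clec4e, Stfa2, which fell by 0.82, Wfdc21 (0.69) and Itgam, which fell by 0.54. Cxcr2 and Clec4e were not well above background in any LFD mouse, and were at least 1.97-fold and 1.22-fold higher. Under quantile normalization Clec4d, Cxcr2, Clec4e and Itgam did not pass. In HFD MTX50 vs HFD 1 rose, the formyl peptide receptor Fpr2 (0.96 ± 0.26, limma adjusted p = 0.0320), and 0 fell. Of 5 measured NADPH oxidase genes, which make the respiratory burst, Cybb rose there (0.61 ± 0.19, 0.0429), and 0 passed in the lean mice.

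Among 10 granulocyte transcription factors and growth signals, the neutrophil chemoattractant Cxcl1 rose on both diets, by 2.25 ± 0.57 (limma adjusted p = 0.0243) in the obese and 1.64 ± 0.57 (0.0404) in the lean mice, where the call was lost under quantile (0.0612) and median scaling (0.0573). It was highest in HFD MTX50 mouse 5, at 3.19, and next in mouse 1, at 2.00, which had the lowest S100a8 of that group. In LFD MTX50 vs LFD, Cebpd (1.54), Csf3, the granulocyte colony-stimulating factor (1.11), and Cebpb (1.04) also rose, while Cebpe, a factor of late granule genes, fell by 0.54. Of 12 calprotectin receptors and S100 relatives 0 passed in HFD MTX50 vs HFD, Tlr4, a calprotectin receptor, differing by 0.10. In LFD MTX50 vs LFD, Bsg (0.75) and Ager (0.56) rose, S100a10 fell by 1.80, and Tlr4 was at -0.19 (limma adjusted p = 0.438).

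Under diet alone, HFD vs LFD, 18% of all genes passed as higher and 10.4% as lower. The companion lists had 1 rise and 1 fall of 7 primary granule genes and 3 rises of 10 secondary and tertiary ones. There were also 4 rises of 16 surface genes, 0 of 5 oxidase genes, 1 of 10 factors and 2 of 12 receptors and relatives. Among them were Clec4e, a pattern receptor of myeloid cells, at least 1.99-fold higher since no LFD mouse was above background (limma adjusted p = 0.00369), and Cd36, a fatty acid and lipoprotein receptor (1.48 ± 0.32, 0.00629). Calls of this kind depended on scaling. Among named genes called in LFD MTX50 vs LFD, Clec4d, Cd177, Cxcl1, Ager, Treml1, Cd8a and Klf1 were lost under both quantile and median scaling. Bpi, Cxcr2, Clec4e, Itgam, Cebpe, Cd79a, Csf1r and Rhag were lost under quantile normalization alone. Wfdc21 and Apoa1 were lost under median scaling alone. Under quantile normalization 7 of the 18 companion and marker calls for diet remained, as did 17 of 33 for methotrexate in the lean mice and all 8 for methotrexate in the obese mice. Over all genes the share of calls that were higher moved from 63.4% to 45.6% for diet and from 62.7% to 44.8% for methotrexate in the lean mice.

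Markers of other leukocytes were set beside the members. Of 10 monocyte and macrophage markers, 0 passed in HFD MTX50 vs HFD, with a median of 0.50, and Cd68 and Csf1r fell in LFD MTX50 vs LFD, by 0.94 and 0.54. Their mean level ran from 0.31 to 1.01 in LFD, 0.31 to 1.00 in LFD MTX50, 0.43 to 0.90 in HFD and 0.67 to 1.71 in HFD MTX50. The mean of 9 T and B cell markers ran from -0.91 to -0.48 across the groups. Of these, 2 rose in LFD MTX50 vs LFD, Cd8a (0.93) and Cd79a (0.52). The mean of 6 proliferation markers ran from -2.41 to -0.80, with 1 rise and 1 fall in the lean mice and 0 calls in the obese. Of 8 hepatocyte markers, Fgb, a fibrinogen chain that responds to inflammation, rose on both diets (0.77 and 0.84) and Apoa1 in the lean mice (0.74). The mean of 6 erythroid markers ran from -2.50 to -1.79 in LFD, -3.70 to -2.93 in LFD MTX50, -2.49 to -2.11 in HFD and -3.35 to -0.86 in HFD MTX50. Alas2 and Hba-a1 fell by 2.99 and 4.82 in LFD MTX50 vs LFD while Klf1 (0.69) and Rhag (0.57) rose, and Epb42, not above background in HFD, was at least 2.38-fold higher in HFD MTX50 vs HFD (limma adjusted p = 0.0180). The part of these cell types in the levels of the members was not tested.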

How the data were processed

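Total liver RNA of each mouse was labelled with Cy3 and hybridised to an Agilent 4×44K one-colour array. The authors scanned the arrays with Agilent Feature Extraction 10.7.3.1, per the submitters' processing notes, and deposited spot intensities on a linear scale, background-subtracted and detrended within each array per the file headers, with no normalization between arrays. The value table of the series holds the same intensities, rounded by the authors.

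Here log2(processed signal) minus the array's 75th percentile over 43020 spots that are not controls was used. Repeat spots were averaged per probe without those the software marked as outliers (124 to 294 on an array), and saturation was found on 0 spots. The filter asked for a signal well above background on 4 or more of the 18 arrays (35738 of 39429 probes, 31396 of them above background on all arrays). Between 83.9% and 90.6% of probes were well above background on an array. Probes were named by accession through RefSeq (GRCm38.p6), 28025 of 39429, and a gene was read on its brightest kept probe. Gene positions of the array's older design assembly are not printed.

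limma 3.58.1 in R 4.3.3 fitted 1 model with the 4 groups, adjusted by Benjamini-Hochberg over all kept probes and called at an adjusted p below 0.05. Exact two-sided permutation tests of the group means stand beside the members. Where every array of a group was below background, "at least N-fold" sets the brighter group's mean against, per array, the higher of the dim probe's value and the lowest signal among probes well above background. Correlations used 100000 permutations of the mice, without regard to group or slide. The number of arrays limits the precision, and the model's prior adds 2.77 degrees of freedom. The scripts were tested on simulated data. No sample column was left unassigned (0 columns).

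Alternatives were normexp background (offset 50, on the median signal, since the mean signal was not among the columns used here), quantile and median scaling, the value table of the series, kept outlier spots, 2 other filters, a variance trend on intensity with robust estimation, a fit of only the groups compared, the methods' t-test with Benjamini-Hochberg adjustment, 2-fold thresholds (with adjusted p, or with unadjusted p up to 0.015), a block for slide (random or fixed) or for replicate number, averaged probes per gene, and each mouse left out. Same-numbered mice did not deviate together (median r = -0.02 over 25 pairs, 7 above 0.1), so numbers do not pair mice.

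The members, the 12 companion and marker lists (112 genes, 105 kept) and the tests were chosen with earlier results of these data known. Named genes are all members, of each list at most 6 called genes per comparison by size, Tlr4, Lcn2, Prtn3 and Ctsg whatever their value, and the 5 genes most like S100a8 and Ngp. Other genes are named as markers or as picked later. One gene's result is not reported here.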

Additional observations from a re-analysis of the deposited data

Results flagged for a closer look

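In 40 groups of 4 or 5 mice (10 probes in 4 groups), 4 held a mouse far from the others by Dixon's test, where chance flags about 5%. Mpo in HFD MTX50 mouse 5 was at 2.76, with the other 4 mice at -3.05 to -1.79. Mmp8 in the same mouse was at -3.44, with the other 3 measured mice at -6.62 to -6.60. Elane in HFD MTX50 mouse 1 was at 5.47, below the other 4 at 6.11 to 6.36. Camp in LFD MTX50 mouse 2 was at -0.39, above the other 4 at -0.89 to -0.76.

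On the Elane probe the effects of methotrexate on the 2 diets differed by 0.87 on the log2 scale (limma adjusted p = 0.0105). This held without each mouse in turn (0.797 to 1.02, adjusted p up to 0.0291). The call was lost with slide as a random block (limma adjusted p = 0.0555), normexp background and either 2-fold threshold. Whether this probe reads Elane message alone was not tested.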

How the results depend on the processing

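The count of members called in HFD vs LFD, 1 in the fit described above, became 0 with quantile normalization, normexp background, slide as a random block, the replicate block and either 2-fold threshold, 3 by the methods' t-test and 4 with only the groups compared (35.7% and 41.7% of all genes passing, in place of 28.3%), and was unchanged under 7 others. In HFD MTX50 vs HFD, 0 became 1 with an unadjusted p up to 0.015 and 2-fold (Ngp), and stayed 0 under 15 others. Among those 15, normexp background, only the groups compared and the methods' t-test passed 0 of all genes. No member could pass in them. In LFD MTX50 vs LFD, 3 became 0 with normexp background or slide as a random block. It became 1 (Elane) with probes above background on all arrays. That filter removed Ngp and Mmp8, above background on 7 and 8 arrays, so they were not tested there. The count was 6 with only the groups compared (31.7% of all genes, in place of 28.1%) and 2 to 4 under 11 others. For the difference between treatment effects, 1 became 0 with normexp background, slide as a random block and either 2-fold threshold, and stayed 1 under 9 others; only the groups compared and the methods' t-test were not run there, since all 4 groups enter. The cause of the other changes in count was not tested. Leaving out 1 mouse gave 0 to 2, 0 to 6, 2 to 5 and 1 to 2 calls in these 4 comparisons. Without HFD MTX50 mouse 5 it was 2 for diet, 5 for methotrexate in lean mice and 2 for the difference between effects. Of all genes, 32.1%, 31.7% and 22.8% passed in these comparisons without that mouse.

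Some signs turned. With slide as a fixed block, which rests on slide 5 alone, HFD MTX50 vs HFD was -0.31 for Camp, -0.061 for Ltf, -0.23 for Mpo and -0.24 for Mmp8. With quantile normalization HFD vs LFD was -0.077 for S100a8 and -0.18 for Retnlg. The difference between treatment effects was -0.089 (normexp) and -0.33 (random slide block) for Ngp, 0.030 for Camp with a gene's probes averaged, and 0.15, 0.087 and 0.019 for Ltf with quantile scaling, median scaling and the value table of the series. Without 1 mouse, HFD vs LFD ranged from -0.31 to 0.41 for S100a8, -0.16 to 0.41 for S100a9 and -0.090 to 0.52 for Retnlg. The difference between treatment effects ranged from -0.66 to 0.73 for Ngp, -0.48 to 0.27 for Ltf and -0.10 to 1.35 for Mpo.

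With the replicate block HFD vs LFD had 0 members called (Elane adjusted p = 0.0584), and the Ngp call in LFD MTX50 vs LFD was lost (0.0851), leaving 2; it changed no other call. normexp moved the median of all genes by 0.29 to 0.42 in the 3 comparisons of groups and left 2, 0, 318 and 0 genes called over all genes, and the random slide block left 380, 1858, 340 and 1249. Of 96 counts of list genes under quantile or median scaling, 38 moved by more than 1.5 times. Ngp and Mmp8 lie near background, where their differences are least certain.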
